A study of Mus musculus with 12 samples.

Results

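The 7 genes Gstm1 to Gstm7 encode the mu class of mouse glutathione transferases, and their expression was compared in livers with and without the clock factor BMAL1. They were taken by symbol from tables of RPKM (reads scaled for transcript length and sequencing depth) and account for 7 of 22322 gene symbols and 24 of 46585 transcript rows. The family was chosen by a measured value, since Gstm3 and Gstm2 were known to be among the genes most over-expressed in the knockout, so the differences of these 7 genes between genotypes are a description with no test. The differences between times, and the interaction of time with genotype, were not used in the choice and were tested. RNA was extracted from whole livers of 12 male C57BL/6 mice aged 8 weeks that were kept in complete darkness before collection. At circadian time 0 h (CT0), when lights would have come on, and at 12 h (CT12), 3 wild-type (WT) mice and 3 mice with a knockout (KO) of Bmal1 in the liver were taken. The WT mice were homozygous for the floxed Bmal1 allele, in which loxP sites flank exon 8. The KO mice came from that line bred to mice that express CRE recombinase from a liver-specific promoter that was not named. Whether WT mice carried CRE is not given, so the recombinase and the loss of Bmal1 cannot be told apart. One label speaks of 2 mice per group where 3 samples are listed, and p-values measure the spread between the samples as listed. The labels also write zeitgeber time (ZT) in descriptions and CT in titles. The titles were followed, and the darkness is taken from the methods of the study.

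Glutathione transferases join the tripeptide glutathione to reactive electrophilic compounds, which makes drugs, toxins and products of lipid peroxidation more water-soluble. Mu-class subunits work as dimers in the cytosol, and hepatocytes are rich in them. The conjugates are carried out of the cell by transporters such as ABCC2 and are processed further to mercapturic acids. Glutathione transferase genes are textbook targets of NRF2, which answers oxidative and electrophilic stress, and of the xenobiotic receptors CAR and PXR. BMAL1, encoded by Arntl, pairs with CLOCK to drive rhythmic transcription through E-boxes.

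The family forms a cluster of 149.1 kb on chromosome 3 (NCBIM37, chr3:107698739-107847812). Along the chromosome the order is Gstm5, Gstm7, Gstm6, Gstm3, Gstm2, Gstm1 and Gstm4, with Gstm5 on the plus strand and the other 6 on the minus strand. The genes are close copies of each other, which matters for short reads. The coding sequences of Gstm1 and Gstm3 were the closest pair, with 89.5% identical bases, and those of Gstm5 and Gstm6 the most distant, with 66.6%. The longest coding run without a mismatch joined Gstm3 and Gstm6, which share 125 bases. That stretch is shown for all members from GENCODE vM1 transcripts to let the degree of likeness be seen, with each base that differs from Gstm3 in capitals. It covers coding bases 169 to 293 of each transcript, counted from the start codon, except in Gstm5, where it covers coding bases 178 to 302.
Gstm3 (ENSMUST00000004136): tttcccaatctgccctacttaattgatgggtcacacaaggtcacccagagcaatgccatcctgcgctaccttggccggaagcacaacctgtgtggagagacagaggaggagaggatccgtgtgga
Gstm6 (ENSMUST00000106684): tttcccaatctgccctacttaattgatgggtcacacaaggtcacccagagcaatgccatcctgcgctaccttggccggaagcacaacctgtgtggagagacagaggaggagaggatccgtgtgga
Gstm2 (ENSMUST00000012348): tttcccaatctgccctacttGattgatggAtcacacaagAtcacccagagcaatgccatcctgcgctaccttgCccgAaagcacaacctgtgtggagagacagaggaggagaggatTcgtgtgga
Gstm7 (ENSMUST00000004137): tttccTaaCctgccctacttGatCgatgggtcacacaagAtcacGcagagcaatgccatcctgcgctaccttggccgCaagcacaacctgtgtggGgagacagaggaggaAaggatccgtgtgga
Gstm1 (ENSMUST00000004140): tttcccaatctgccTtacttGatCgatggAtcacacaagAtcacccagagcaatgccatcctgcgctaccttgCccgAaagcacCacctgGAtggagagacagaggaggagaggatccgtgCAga
Gstm4 (ENSMUST00000029489): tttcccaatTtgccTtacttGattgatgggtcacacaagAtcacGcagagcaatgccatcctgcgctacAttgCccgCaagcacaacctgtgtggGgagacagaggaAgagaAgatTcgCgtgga
Gstm5 (ENSMUST00000004134): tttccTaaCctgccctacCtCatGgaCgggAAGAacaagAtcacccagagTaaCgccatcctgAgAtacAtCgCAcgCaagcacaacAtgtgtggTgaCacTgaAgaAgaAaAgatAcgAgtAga
Gstm6 carried 0 differences from Gstm3 in this stretch, Gstm2 carried 6, Gstm7 9, Gstm1 12, Gstm4 13 and Gstm5 31. A read that falls wholly inside it cannot be assigned to Gstm3 or Gstm6 by its sequence.

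Over whole transcripts the shared sequence was a minor part. Of the 50-base words in the transcript used for each gene, 17.6% in Gstm3, 13.2% in Gstm6, 12.6% in Gstm1 and 1.4% in Gstm2 also occurred exactly in a transcript of another member, and 0% did in Gstm4, Gstm5 and Gstm7. When up to 2 mismatches were allowed the share ranged from 0% in Gstm5 to 37.0% in Gstm1. How the authors treated reads that match several places is not given in the sources used here, so the values of Gstm1, Gstm3 and Gstm6 are less certain than those of Gstm5. In addition, transcript ENSMUST00000106678 of Gstm3 overlaps exons of 4 Gstm6 transcripts on the same strand by 82 bases. Gstm3 is represented below by ENSMUST00000004136, and ENSMUST00000106678 enters only where the longest row or all rows are compared. The transcript used for Gstm6, ENSMUST00000106681, is among the 4 that are overlapped.

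Depth recovered from the values was 16900000 to 19020000 reads in WT at CT0, 13410000 to 16130000 in WT at CT12, 11460000 to 14900000 in KO at CT0 and 13240000 to 14420000 in KO at CT12. Each gene was represented by its transcript of highest mean RPKM, and all 7 members passed the filter on low values. The reads behind a value in 1 sample ranged from 66 to 161 for Gstm5 and from 7750 to 22753 for Gstm1. Arntl itself was at 16.4, 15.7 and 15.7 RPKM in the WT mice at CT0 and at 5.92, 5.73 and 7.45 in KO. At CT12 it was at 1.26, 0.68 and 1.21 RPKM in WT and at 4.37, 3.59 and 4.01 in KO. The KO mice were thus below WT at CT0 and above WT at CT12, and a value per whole transcript cannot report on the floxed exon alone. The tissue label was checked on 8 hepatocyte markers, whose summed level was 55480 to 60860 RPKM in WT at CT0, 45830 to 55510 in WT at CT12, 41740 to 47430 in KO at CT0 and 36040 to 41580 in KO at CT12. This sum was lower in KO than in WT at each time, whereas the Gstm genes were higher. Of the 8 markers 2 passed the test between genotypes over both times (limma, adjusted p under 0.05). For other liver cells 0 of 8 Kupffer cell, 0 of 6 endothelial, 0 of 6 stellate, 0 of 3 bile duct, 1 of 4 red blood cell and 0 of 1 lymphocyte markers did. Over all tested genes 7.44% were higher and 4.03% lower in KO, and with lists this short nothing is read from these counts. In whole liver, fewer cells of a type and less RNA per cell cannot be told apart.

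Gstm1 was the major member in every group. In WT at CT0 it was at 997, 1276 and 1086 RPKM, and at CT12 at 1098, 1074 and 910. In KO it was at 2360, 2447 and 3126 RPKM at CT0 and at 2272, 2702 and 2512 at CT12. All 6 KO livers were above all 6 WT livers, and the times overlapped within each genotype. The ratio of the KO mean to the WT mean was 2.36 ± 0.28 (SE, n = 3 per group) at CT0 and 2.43 ± 0.18 at CT12.

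Gstm3, the closest relative of Gstm1 in coding sequence, was a minor member in WT and the second highest in KO. It was at 37.0, 44.9 and 35.9 RPKM in WT at CT0 and at 29.0, 32.5 and 15.3 at CT12. In KO it was at 540.5, 183.6 and 442.6 RPKM at CT0 and at 257.4, 425.6 and 232.9 at CT12. No KO liver came near a WT liver, and the KO livers differed widely among themselves, with replicate 2 at CT0 far below the other two. The KO mean was 9.90 ± 2.8 times the WT mean (SE, n = 3 per group) at CT0 and 11.9 ± 3.4 times at CT12. With standard errors of that size the ratios at the 2 times cannot be ordered.

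Gstm2 followed with the next largest difference. It was at 52.6, 50.7 and 48.7 RPKM in WT at CT0 and at 41.9, 25.8 and 33.3 at CT12. In KO it was at 398.3, 200.9 and 374.7 RPKM at CT0 and at 205.8, 248.8 and 215.8 at CT12. The groups did not overlap between genotypes, and replicate 2 was again the low mouse of KO at CT0. The ratio of means was 6.41 ± 1.2 at CT0 and 6.64 ± 1.0 at CT12.

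Gstm6 was at 82.2, 78.0 and 86.4 RPKM in WT at CT0 and at 66.5, 60.2 and 54.0 at CT12. In KO it was at 334.6, 229.5 and 253.6 RPKM at CT0 and at 182.3, 198.7 and 184.0 at CT12. The CT0 livers were above the CT12 livers in both genotypes with no overlap, and all KO livers were above all WT livers. The KO mean was 3.32 ± 0.40 times the WT mean at CT0 and 3.13 ± 0.21 times at CT12.

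Gstm7 was at 78.3, 71.4 and 81.0 RPKM in WT at CT0 and at 35.5, 39.2 and 48.2 at CT12. In KO it was at 137.0, 109.3 and 140.0 RPKM at CT0 and at 102.7, 80.9 and 99.4 at CT12. It had the same layout as Gstm6, with CT0 above CT12 in both genotypes, and the genotypes overlapped only across times, where the lowest KO value at CT12 was next to the highest WT value at CT0. The KO mean was 1.67 ± 0.14 times the WT mean at CT0 and 2.30 ± 0.27 times at CT12.

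Gstm4 and Gstm5 lie at opposite ends of the cluster and differed least between genotypes. Gstm4 was at 20.4, 23.4 and 21.1 RPKM in WT at CT0, at 15.1, 17.9 and 13.1 in WT at CT12, at 37.6, 27.1 and 25.3 in KO at CT0 and at 24.5, 25.6 and 27.5 in KO at CT12. Gstm5 was at 12.1, 14.1 and 10.8 RPKM in WT at CT0, at 6.83, 10.6 and 8.46 in WT at CT12, at 14.9, 16.0 and 16.5 in KO at CT0 and at 15.1, 14.0 and 14.9 in KO at CT12. Both were higher in KO at each time with no overlap, by narrow gaps at CT0, where the lowest KO value was 1.08 times the highest WT value for Gstm4 and 1.05 times for Gstm5. The ratio of means was 1.39 ± 0.19 at CT0 and 1.69 ± 0.16 at CT12 for Gstm4, and 1.28 ± 0.11 and 1.70 ± 0.22 for Gstm5.

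**Figure D1:**
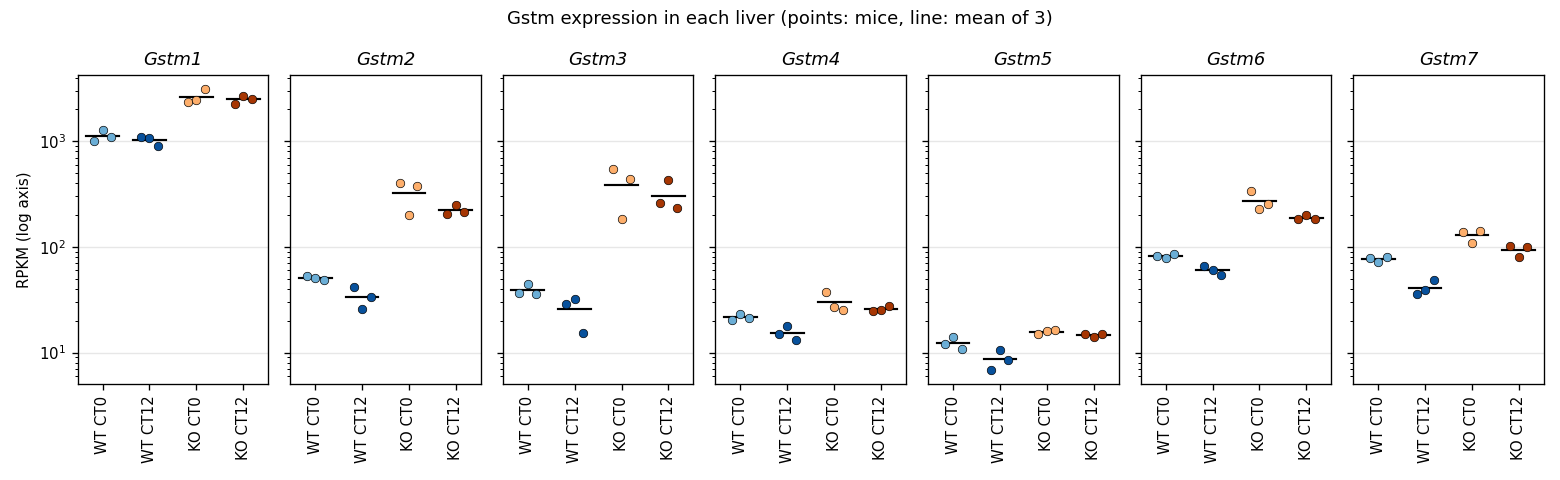
RPKM (log axis) of the 7 Gstm genes in each liver, with 1 panel per gene, 1 point per mouse and a line at the mean of 3 mice in each of the 4 groups. All KO points lie above the WT points of the same time in every panel, and the gap is widest for Gstm3, from 15.3 to 44.9 RPKM in WT to 183.6 to 540.5 in KO.

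In all 7 members the KO livers were above the WT livers at CT0 with no overlap, and the same held at CT12. Among the 10799 genes tested, 11.3% were laid out this way at CT0, 20.4% at CT12 and 5.01% at both times. The contrast chose the family, so nothing is read from these counts. Averaged over both times, the difference in log2(RPKM + 1) was 3.34 ± 0.27 (SE, 12 samples) for Gstm3, 2.66 ± 0.16 for Gstm2, 1.67 ± 0.09 for Gstm6, 1.26 ± 0.09 for Gstm1, 0.96 ± 0.10 for Gstm7, 0.58 ± 0.10 for Gstm4 and 0.53 ± 0.09 for Gstm5. The median over all tested genes was 0.04. With all genes ordered from the largest rise to the largest fall, the members took ranks 1, 7, 20, 49, 92, 289 and 351 of 10799 in that order. On this scale the difference of weakly expressed genes is understated. Quantile normalization kept all 7 differences above 0. Over the genes tested it moved the split of those past the threshold from 803 higher and 435 lower in KO to 655 and 596.

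RPKM is per length, so levels can be ordered between genes, with the limit that the order depends on the transcript row used. With the rows of highest mean RPKM, the order in WT at CT0 was Gstm1, Gstm6, Gstm7, Gstm2, Gstm3, Gstm4 and Gstm5, and only Gstm6 and Gstm7 overlapped as neighbours in that order. The order in WT at CT12 was the same, with overlap between Gstm7 and Gstm2, between Gstm2 and Gstm3, and between Gstm3 and Gstm4. In KO it was Gstm1, Gstm3, Gstm2, Gstm6, Gstm7, Gstm4 and Gstm5 at both times. Gstm3, Gstm2 and Gstm6 overlapped in KO at CT0, and Gstm3 and Gstm2 did at CT12. With the longest row of each gene the order in KO was the same at both times, while in WT Gstm7, at 42.2 ± 2.4 RPKM (SD, n = 3) at CT0 and 23.3 ± 1.7 at CT12, came after Gstm2 at CT0 and after Gstm2 and Gstm3 at CT12, with overlap among the 3 genes at both times.

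Summed over the 7 members, expression was 1402 ± 142.9 RPKM (SD, n = 3) in WT at CT0, 1212 ± 113.5 in WT at CT12, 3805 ± 582 in KO at CT0 and 3348 ± 322 in KO at CT12. The sum in KO was 2.71 times that in WT at CT0 and 2.76 times that in WT at CT12. Gstm1 made up 79.7% ± 2.0 of the sum in WT at CT0 and 84.8% ± 0.60 at CT12, and 69.8% ± 7.3 and 74.6% ± 1.7 in KO. The share of Gstm3 was 2.80% ± 0.15 and 2.08% ± 0.60 in WT, against 9.99% ± 4.2 and 9.0% ± 2.3 in KO. Gstm2 went from 3.64% ± 0.44 and 2.78% ± 0.65 in WT to 8.41% ± 2.1 and 6.67% ± 0.095 in KO. The shares of Gstm4 and Gstm5, which differed least, were lower in KO, at 0.80% ± 0.20 and 0.42% ± 0.067 at CT0 against 1.54% ± 0.045 and 0.88% ± 0.083 in WT.

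Position in the cluster and the size of the difference ran together to a degree. The 2 genes at the centre, Gstm3 and Gstm2, had the largest differences, their outer neighbours Gstm6 and Gstm1 the next, and the genes at the ends the smallest. Of the 5 nearest genes on each side, 5 passed the filter on low values. For KO against WT over both times, 0 of these 5 passed the test, with differences of -0.25 ± 0.20 for Csf1, -0.10 ± 0.08 for Ahcyl1, 0.14 ± 0.09 for Fam40a, 0.28 ± 0.10 for Ampd2 and -0.05 ± 0.07 for Gnai3 (SE, limma adjusted p = 0.48, 0.50, 0.36, 0.093 and 0.69). Ampd2, which encodes AMP deaminase 2 and starts 29.2 kb past the cluster, was higher in KO at CT12 (0.51 ± 0.14, limma adjusted p = 0.042) and in WT lower at CT12 than at CT0 (-0.50 ± 0.14, limma adjusted p = 0.042). Eps8l3, the nearest gene on the other side at 2.9 kb, was at or near 0 RPKM in every group.

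**Figure D2:**
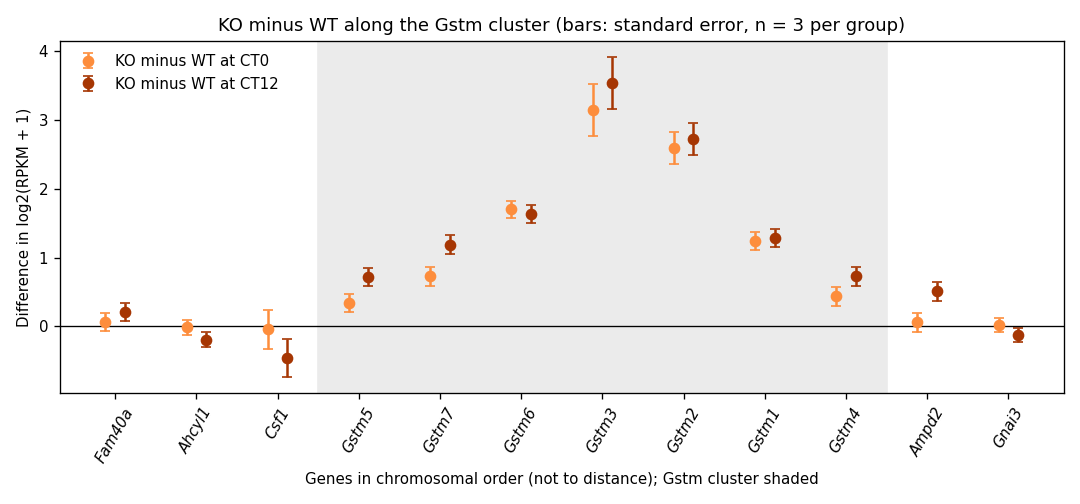
Difference in log2(RPKM + 1) between KO and WT at CT0 and at CT12 for the 7 Gstm genes (shaded) and the 5 flanking genes that passed the filter, in chromosomal order and not to distance, with bars for the standard error (3 mice per group). The points climb from Gstm5 to Gstm3 and descend to Gstm4, and the flanking genes lie between -0.46 and 0.51.

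All transcript rows were then compared to see whether the differences depended on which row stood for a gene. The rows of 1 gene share most of their exons, so they are not independent. The KO against WT difference over both times spanned 1.24 to 1.26 over the 3 rows of Gstm1, 2.63 to 2.66 over the 2 rows of Gstm2, 3.17 to 3.34 over the 2 rows of Gstm3, 0.58 to 0.59 over the 3 rows of Gstm4, 0.53 to 0.60 over the 4 rows of Gstm5, 1.56 to 1.75 over the 5 rows of Gstm6 and 0.95 to 0.96 over the 5 rows of Gstm7. No range of 1 gene reached into that of another except for Gstm4 and Gstm5. In Gstm6 the row with no exact 50-base word in common with another member, ENSMUST00000106683, differed by 1.75. The row with the most shared words, ENSMUST00000106681, differed by 1.67, and ENSMUST00000106680, with 3.3% of its words shared exactly, by 1.56. Gstm1 had the highest share of near-identical words and a difference of 1.26. Gstm2, with 20.1% of its words within 2 mismatches of another member, had 2.66. Between genes, the members whose main row held exact shared words, Gstm3, Gstm2, Gstm6 and Gstm1, had the largest differences. Gstm7, Gstm4 and Gstm5, whose main rows held none, had the smallest. A share of words does not give the number of reads taken from another member, which also depends on how abundant that member is. The part of shared reads in these values was not tested.

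**Figure D3:**
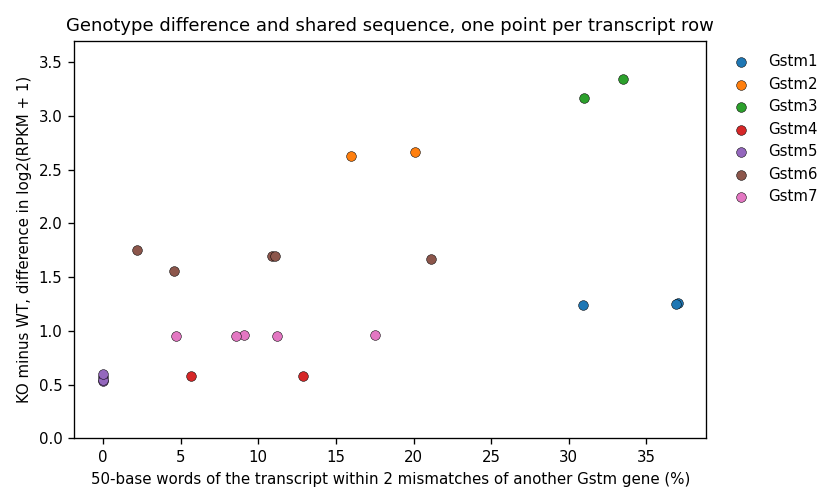
KO minus WT difference in log2(RPKM + 1), mean over both times, against the percentage of 50-base words within 2 mismatches of another Gstm gene, with 1 point for each of the 23 transcript rows that had a transcript model, coloured by gene. Rows of the same gene lie at similar heights, as in Gstm6, where shares of 2.2% to 21.1% go with differences of 1.56 to 1.75.

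The next question was whether the family changes between the times of day, and whether this depends on BMAL1. In WT all 7 differences of CT12 from CT0 were negative, and 3 genes fell past the threshold. Gstm7 fell by 0.90 ± 0.14 (SE, log2 scale, limma adjusted p = 0.0014), from 76.9 ± 4.9 RPKM (SD, n = 3) to 41.0 ± 6.5. Gstm5 fell by 0.48 ± 0.13 (limma adjusted p = 0.039) and Gstm6 fell by 0.45 ± 0.13 (limma adjusted p = 0.042). Gstm4 had -0.48 ± 0.14 with an adjusted p of 0.053, Gstm2 -0.60 ± 0.23 with 0.11, Gstm3 -0.66 ± 0.38 with 0.29 and Gstm1 -0.12 ± 0.13 with 0.61 (limma). The 3 CT12 livers were below the 3 CT0 livers with no overlap in 6 of the 7 genes, Gstm1 being the exception. Of all tested genes 7.88% were lower at CT12 in WT past the threshold and 22.9% were lower with no overlap, so a general lean towards lower values at CT12 was present. The median difference over the family was -0.48, against -0.07 over all tested genes. Under quantile normalization the split of genes past the threshold moved from 401 higher and 851 lower at CT12 to 575 and 593. All 7 Gstm differences stayed negative under it, Gstm7 and Gstm6 kept their calls (limma adjusted p = 0.0017 and 0.046), Gstm5 lost its call (-0.43, limma adjusted p = 0.073) and Gstm4 gained one (-0.44, limma adjusted p = 0.045). In WT the summed markers of some non-hepatocytes were lower at CT12 too, at 108 to 166 against 176 to 230 RPKM for 8 Kupffer cell markers, 58.0 to 68.0 against 86.6 to 106.7 for 6 endothelial markers and 94.0 to 110.1 against 128.2 to 178.0 for 6 stellate markers. The sum of 8 hepatocyte markers leaned the same way in WT, at 45830 to 55510 against 55480 to 60860 RPKM. In KO the hepatocyte sum was lower at CT12 with no overlap, at 36040 to 41580 against 41740 to 47430 RPKM. The stellate sum in KO was lower at CT12 as well, at 117.6 to 152.9 against 162.5 to 193.8. The Kupffer cell and endothelial sums in KO overlapped between times. The part of cell types in the time difference was not tested.

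The call of Gstm7 held in all 19 alternatives, with differences from -1.02 to -0.81 and adjusted p from 0.00043 to 0.013 (limma). That of Gstm5 held in 10 of 19 and that of Gstm6 in 8 of 19, with adjusted p up to 0.14 and 0.15. Gstm5 lost it without any 1 of 7 livers (WT CT0 replicates 1 and 2, WT CT12 replicates 1 and 3, KO CT0 replicates 2 and 3, and KO CT12 replicate 2), with limma adjusted p from 0.05 to 0.14. Gstm6 lost it without any 1 of 10 livers, which are all but KO CT0 replicates 1 and 2, with limma adjusted p from 0.052 to 0.15. Gstm4 passed in 6 of 19 alternatives, among them the longest transcript row (limma adjusted p = 0.029), and when any of WT CT12 replicate 2, KO CT0 replicate 1 or KO CT0 replicate 3 was left out (limma adjusted p from 0.018 to 0.048). Gstm2 passed without KO CT0 replicate 2 (limma adjusted p = 0.025).

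In KO the differences between CT12 and CT0 were again negative in 7 of 7 members, and 0 passed the threshold (limma), with 2 at an unadjusted p under 0.05. Gstm6 had -0.51 ± 0.13 with an adjusted p of 0.059 and Gstm7 -0.44 ± 0.14 with 0.10 (limma), and these were the 2 genes whose livers at CT12 and CT0 did not overlap. The 95% intervals reached from -0.79 to -0.24 for Gstm6, from -0.74 to -0.15 for Gstm7, from -0.98 to 0.02 for Gstm2 and from -1.08 to 0.56 for Gstm3. Gstm1, at -0.08 ± 0.13, Gstm5, at -0.10 ± 0.13, and Gstm4, at -0.19 ± 0.14, were closer to 0. Past the threshold in KO were 2.43% of all tested genes in either direction, and 11.4% were lower at CT12 with no overlap. Leaving out KO CT0 replicate 2, the mouse with low Gstm2 and Gstm3, let Gstm2 (-0.79, limma adjusted p = 0.034) and Gstm6 (-0.63, limma adjusted p = 0.033) pass.

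The interaction asks whether the time difference in KO departs from that in WT. It passed the threshold for 0 of the 7 members (limma), with 1 at an unadjusted p under 0.05, and for 1.49% of all tested genes. Gstm7 had the largest term, 0.46 ± 0.19 (limma adjusted p = 0.35, 95% interval 0.04 to 0.87), followed by Gstm3 with 0.40 ± 0.53 (adjusted p = 0.83, -0.77 to 1.56) and Gstm5 with 0.38 ± 0.19 (adjusted p = 0.44, -0.03 to 0.80). Gstm6 had -0.07 ± 0.18 (limma adjusted p = 0.92, -0.46 to 0.33). The intervals were wider than the time difference in WT for every member but Gstm7. The calls in WT and the absence of calls in KO therefore do not show that any member differs in its time course between genotypes.

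**Figure D4:**
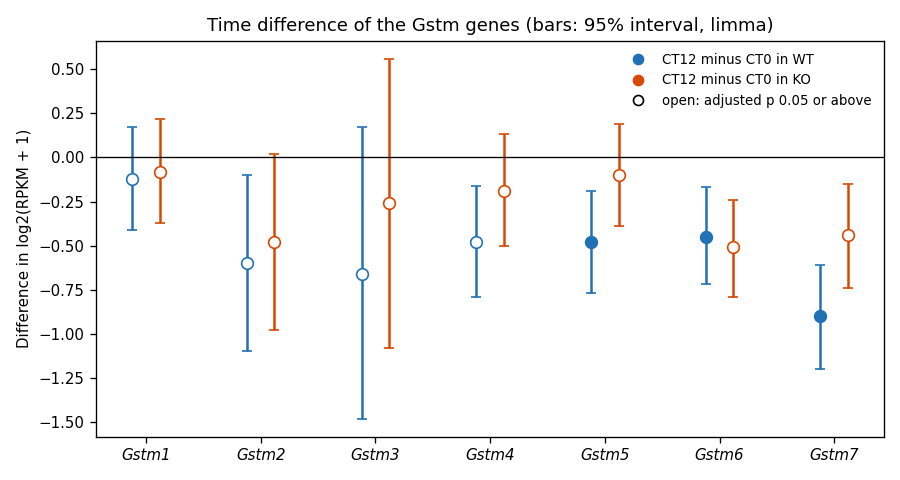
Difference in log2(RPKM + 1) between CT12 and CT0 in WT and in KO for each Gstm gene, with 95% intervals from the limma fit and filled circles where the adjusted p is under 0.05. All 14 points lie below 0, and filled circles appear only for Gstm5, Gstm6 and Gstm7 in WT.

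Mice that were high for one member were not always high for the others. Deviations from the group means over the 12 livers, which share library and depth across genes, had r of 0.65 between Gstm2 and Gstm3, 0.67 between Gstm2 and Gstm6, 0.74 between Gstm3 and Gstm6 and 0.66 between Gstm4 and Gstm6. Gstm3 and Gstm6 are also the pair with the longest identical coding run. The part of shared reads in these r values was not tested. Over the 21 pairs the median r was 0.11, and the lowest was -0.48, between Gstm2 and Gstm5. Gstm3 deviated most, by 0.61 above its group mean in KO CT0 replicate 1 and -0.94 in KO CT0 replicate 2 on the log2 scale, and Gstm2 deviated in the same direction, by 0.36 and -0.63. Gstm1 and Gstm5 did not follow in these mice, with -0.15 and -0.10 for Gstm1 and -0.08 and 0.02 for Gstm5. Over all 12 livers without removal of group means r was 0.78 to 0.99, which holds the genotype difference common to the family.

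Outside the family, the genes whose log2 values over the 12 livers were most like a member were found by Pearson's r. Ntrk2, a neurotrophin receptor gene, was most like Gstm3 (r = 0.978) and Gstm2 (r = 0.98). Its WT level was low, at 0.40 ± 0.31 RPKM at CT0 and 0.08 ± 0.05 at CT12 (SD, n = 3). In KO it was at 4.9 ± 1.1 and 4.3 ± 0.7 RPKM, and it passed the filter through the KO groups alone. For Gstm1 the first was the clock repressor gene Cry1 (r = 0.972), which was at 4.85 ± 0.68 RPKM in WT and 17.1 ± 0.55 in KO at CT0 (SD, n = 3). Cyp2c55, which encodes a cytochrome P450, was second for both Gstm1 (r = 0.968) and Gstm3 (r = 0.964). The second for Gstm2 was C8g, which encodes a chain of complement component C8 (r = 0.967). Gstm6 was closest to the G protein-coupled receptor kinase gene Grk5 (r = 0.97) and to Cdcp1 (r = 0.97). Gstm7 was closest to Apon (r = 0.982) and 1110067D22Rik (r = 0.981). Gstm5 was closest to the protease genes Tmprss2 (r = 0.934) and Cela1 (r = 0.933), and Gstm4 to Anxa5, which encodes annexin A5, and Uba1, which encodes a ubiquitin-activating enzyme (both r = 0.947). These values include the difference between the genotypes. After the group means were removed, the genes most like Gstm3 were Cnih (r = 0.975), Mrpl21 (r = 0.962), Prpsap1 (r = 0.955), Ugdh (r = 0.939) and Set (r = 0.938), and their genotype differences were 0.01 to 0.32. They were picked as the highest of all tested genes outside the family, so high r values follow in part from the choice. Each was lower in KO CT0 replicate 2 than in the other KO livers at CT0, as Gstm3 was. Ugdh encodes UDP-glucose dehydrogenase, which makes the sugar donor for glucuronidation.

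Of 14 tested glutathione transferase genes of the alpha, pi, theta, omega, zeta, kappa and microsomal classes, 0 rose and 5 fell in KO averaged over both times (limma), with 9 at an unadjusted p under 0.05 in either direction. Over all tested genes 7.44% rose and 4.03% fell. Gstt2 fell by 1.32 ± 0.32 (limma adjusted p = 0.018), Gsta2 fell by 1.31 ± 0.21 (limma adjusted p = 0.0018), Gsta4 fell by 0.94 ± 0.21 (limma adjusted p = 0.013), Mgst3 fell by 0.76 ± 0.13 (limma adjusted p = 0.0029) and Gsta3 fell by 0.57 ± 0.09 (limma adjusted p = 0.0018). Gsta4 is known for conjugating the lipid peroxidation product hydroxynonenal. Gsta3 was abundant, at 1467 ± 153 RPKM (SD, n = 3) in WT and 1106 ± 190 in KO at CT0, and at 1356 ± 109 and 814.9 ± 49.6 at CT12. Gstk1 had 0.26 ± 0.09 and Gstz1 0.18 ± 0.07 (limma adjusted p = 0.088 and 0.14). Mgst1, the most abundant of the list, was at 2822 ± 120 RPKM in WT and 2785 ± 357 in KO at CT0. The median difference of the 14 was -0.47, against 0.04 over all tested genes. Between CT12 and CT0 in WT, 0 of the 14 passed the threshold (limma), with 2 at an unadjusted p under 0.05 and a median of -0.07. Close copies such as Gsta1 and Gsta2, or Gstp1 and Gstp2, may share reads, and their values are uncertain.

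Of 10 tested genes that supply or recycle glutathione, 2 rose and 1 fell, with a median of 0.09 and 4 at an unadjusted p under 0.05, where 7.44% of all tested genes rose and 4.03% fell. Cbs, which commits homocysteine to cysteine synthesis, rose by 0.86 ± 0.06 (limma adjusted p = 4.3e-06) over both times, with 0.33 ± 0.09 at CT0 (limma adjusted p = 0.091), 1.40 ± 0.09 at CT12 (limma adjusted p = 2.3e-06) and an interaction that passed (limma adjusted p = 0.0012). Ggct, of the gamma-glutamyl cycle, rose by 0.63 ± 0.08 (limma adjusted p = 0.00026). Oplah, which turns 5-oxoproline back into glutamate, fell by 0.37 ± 0.07 (limma adjusted p = 0.0049). The rate-limiting subunit gene Gclc had 0.10 ± 0.10 and its partner Gclm -0.06 ± 0.07 (limma adjusted p = 0.61 and 0.68). Among the steps after conjugation, 0 of 7 tested genes rose and 3 fell, with a median of -0.35 and 5 at an unadjusted p under 0.05. Nat8, which encodes the enzyme that acetylates cysteine conjugates to mercapturates, fell by 2.29 ± 0.14 (limma adjusted p = 1.2e-06), from 4.32 ± 1.1 RPKM to 0.25 ± 0.12 at CT0 (SD, n = 3). The peptidase gene Anpep fell by 0.36 ± 0.08 (limma adjusted p = 0.011) and the conjugate exporter gene Abcc2 fell by 0.33 ± 0.07 (limma adjusted p = 0.0063).

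Of 16 tested genes of the NRF2 list, which holds Gclc and Gclm too, 1 rose and 0 fell, with a median of 0.19. This 1 of 16 is a share near the 7.44% of all tested genes that rose. At an unadjusted p under 0.05 (limma) were 5 of the 16, in either direction. The one that rose was Hmox1, which encodes heme oxygenase 1 (0.48 ± 0.10, limma adjusted p = 0.0065). Nqo1, a standard NRF2 target, had 0.28 ± 0.09 with an adjusted p of 0.074 (limma). Of 19 tested genes of the CAR and PXR list, which holds Abcc2 too, 4 rose and 6 fell, with a median of 0.09, against 7.44% and 4.03% of all tested genes. The 4 that rose all encode cytochromes P450, Cyp2c55 (3.33 ± 0.21, limma adjusted p = 1.2e-06), Cyp2b10 (2.38 ± 0.34, limma adjusted p = 0.00078), Cyp2c29 (1.22 ± 0.12, limma adjusted p = 4.2e-05) and Cyp3a11 (0.49 ± 0.14, limma adjusted p = 0.046). Nr1i3, which encodes CAR itself, fell by 0.76 ± 0.14 (limma adjusted p = 0.0048), and Por, the electron donor of these enzymes, fell by 1.10 ± 0.15 (limma adjusted p = 0.00044). For Por the difference was -0.36 ± 0.21 at CT0 (limma adjusted p = 0.47) and -1.85 ± 0.21 at CT12 (limma adjusted p = 0.00013), and its interaction passed (limma adjusted p = 0.027). Cyp2b9, Ugt1a1, Cyp3a13 and Abcc2 made up the rest of the falls. Cytochrome P450 genes of a subfamily are also near copies whose reads may be split. Of the 14 genes of the clock list 4 rose and 4 fell over both times, and 7 passed the interaction, against 1.49% of all tested genes. Arntl had 0.04 ± 0.09 over both times, -1.21 ± 0.13 at CT0 and 1.29 ± 0.13 at CT12 (limma adjusted p = 0.83, 0.00058 and 6.3e-05).

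**Figure D5:**
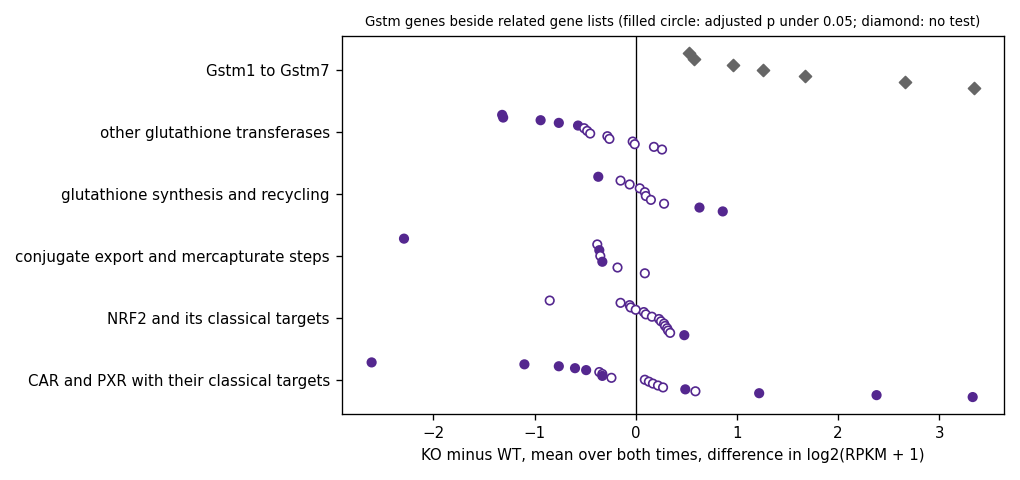
KO minus WT difference in log2(RPKM + 1), mean over both times, for the 7 Gstm genes (grey diamonds, no test) and the tested genes of 5 related lists (circles, filled where the limma adjusted p is under 0.05). The Gstm genes lie between 0.53 and 3.34, the other glutathione transferases between -1.32 and 0.26, and the CAR and PXR list spreads over both sides from -2.61 to 3.33.

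The promoters of the family were searched because the members differed in 1 direction between genotypes. RefSeq gave 12 promoter windows of the 7 genes on GRCm38.p6, each of 300 bases around a start, and this build is not that of the deposited values. The motif CACGTG, the E-box of CLOCK and BMAL1, was in 0 of the 12, against 7.15% of all 32851 promoters. The D-box TTATGTAA was in 0 (0.94% of all) and DR4, a repeat of the half-site TGACCT with 4 free bases between that CAR can bind, in 0 (0.02% of all). The antioxidant response element TGACNNNGC was in 1 window each of Gstm5 and Gstm7 (12.39% of all promoters). Both strands were read, and none of the 2 matches overlapped another motif. The 2 windows are shown with the match in capitals, together with that of Gstm3, the gene with the largest difference, which held none of the 4 motifs.
Gstm3 promoter, minus strand, chr3:107969125-107969424: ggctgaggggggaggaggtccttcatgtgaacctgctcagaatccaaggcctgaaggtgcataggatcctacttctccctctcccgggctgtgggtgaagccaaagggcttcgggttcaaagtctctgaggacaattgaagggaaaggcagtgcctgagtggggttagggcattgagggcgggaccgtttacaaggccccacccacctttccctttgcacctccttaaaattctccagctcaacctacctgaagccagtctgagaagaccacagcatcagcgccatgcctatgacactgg
Gstm5 promoter, plus strand, chr3:107895604-107895903: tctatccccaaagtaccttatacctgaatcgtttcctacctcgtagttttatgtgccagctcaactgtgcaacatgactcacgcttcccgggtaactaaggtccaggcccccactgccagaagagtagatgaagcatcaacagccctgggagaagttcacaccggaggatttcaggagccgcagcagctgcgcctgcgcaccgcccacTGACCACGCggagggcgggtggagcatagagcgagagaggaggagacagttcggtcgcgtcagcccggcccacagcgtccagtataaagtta
Gstm7 promoter, minus strand, chr3:107931565-107931864: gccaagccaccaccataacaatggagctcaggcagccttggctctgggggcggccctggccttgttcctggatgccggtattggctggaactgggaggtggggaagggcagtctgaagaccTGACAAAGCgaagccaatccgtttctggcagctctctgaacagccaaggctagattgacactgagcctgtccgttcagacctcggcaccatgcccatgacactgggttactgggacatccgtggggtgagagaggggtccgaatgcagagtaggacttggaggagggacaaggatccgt
Gstm5 and Gstm7 were among the 3 members with the smallest differences between genotypes, and Gstm4, the other one, held no match. A match of letters in 300 bases is a description and not a binding site.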

How the data were processed

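Total RNA of 12 mouse livers was made into TruSeq RNA libraries. The authors deposited 1 table of RPKM per sample, with 46585 Ensembl transcript rows and gene symbols. The submitters' processing notes name TopHat2, bedtools 2.19.1 and the build mm9 (NCBIM37); how reads matching several places were counted is not given in the sources used here. Replicates were not pooled. Groups and replicate numbers came from the sample titles.

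RPKM times transcript length gave whole reads (tolerance 0.02) for 94.5% to 95.5% of low values, from which depth was recovered, using GENCODE vM1 lengths for 95.5% of rows. RPKM values keep no strand and were not tested as counts. Each of 22322 symbols was represented by its row of highest mean RPKM. Genes whose mean reached 1 RPKM in any group (10799) were tested on log2(RPKM + 1), so differences of low genes are understated. The 4 group means were estimated from the 12 samples together by limma 3.58.1 (R 4.3.3; lmFit, eBayes with trend), with Benjamini-Hochberg adjustment over all tested genes and a threshold of 0.05. The script was tested on simulated data. The closest pair of replicates differed by an SD of 0.252 in log2 ratio, so no replicate held a copy of another's values. Counting noise of low genes enters this SD, so it cannot show whether 2 libraries came from 1 mouse. The members and all gene lists were chosen with earlier results of these data known. Named genes were the 7 members, the 2 genes outside the family most like each member over 12 samples, the 5 most like Gstm3 within groups, the 5 nearest genes on each side and 2 to 4 examples per list. Shared words and coding identity came from GENCODE vM1 transcripts, and promoters from RefSeq (GRCm38.p6), with Python 3.11.15 and Biopython 1.88. Alternatives tried were no filter, a pseudocount of 0.1, 1 RPKM in every sample, quantile normalization, the longest transcript row, all transcript rows, a replicate block and leaving out each sample.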

Additional observations from a re-analysis of the deposited data

How the results depend on the processing

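Of the 399 tested values of single Gstm genes recomputed over 19 alternatives, 356 kept their direction and side of the threshold, 20 lost and 10 gained a call, and 13 changed sign, all of them far from the threshold. The untested KO against WT differences of the 7 genes stayed above 0, with Gstm3 between 3.17 and 3.58. Under quantile normalization the interaction of Gstm1 was -0.03. Leaving out 1 sample gave -0.15 to 0.05 for the time difference in KO of Gstm1 and -0.73 to 0.05 for that of Gstm3, and interactions of -0.05 to 0.17 for Gstm1, -0.19 to 0.30 for Gstm2, -0.07 to 0.70 for Gstm3 and -0.18 to 0.09 for Gstm6. The count of Gstm genes lower at CT12 in WT, 3, became 1 with no filter and 1 to 4 when a sample was left out. That in KO, 0, became 1 with the longest row (Gstm6) and 0 to 2 when a sample was left out. The interaction count was 0 in every alternative.

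Over all genes, no filter gave 749 genes for time in WT, 61 for time in KO, 64 for the interaction and 61 for KO against WT at CT0, where 1 RPKM in every sample gave 117. All transcript rows, a larger table, gave 3298, 741 and 426, and 2927, 457 and 2807 for KO against WT over both times, at CT0 and at CT12. Leaving out 1 sample gave 660 to 1393 genes (1252 with all samples) for time in WT, 62 to 257 (262) for time in KO, 87 to 146 (161) for the interaction, 938 to 1181 (1238) for KO against WT over both times, 76 to 208 (201) at CT0 and 728 to 1281 (1130) at CT12; an arm reduced to 2 samples shares the spread of the other groups. Quantile normalization moved the split of the interaction from 116 positive and 45 negative to 86 and 58, and that of KO against WT at CT12 from 753 higher and 377 lower to 550 and 503. The cause of these changes was not tested.

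Samples with the same replicate number did not deviate together (mean r = 0.008 over 18 pairs, against -0.004), so they share only a number. With the replicate block 1198 genes passed for time in WT, 225 for time in KO, 128 for the interaction, 1180 for KO against WT over both times, 173 at CT0 and 1075 at CT12, and no call on a Gstm gene changed. With 3 mice per group the standard error of the interaction was 0.18 to 0.53 for the 7 genes, and differences in time course of that size were not detectable.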
